A study of Mus musculus with 24 samples.

Results

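A set of 10 antioxidant genes was followed across high fat and low fat feeding in mouse skeletal muscle: 5 glutathione peroxidases (Gpx1, Gpx3, Gpx4, Gpx7 and Gpx8), catalase (Cat), the cytosolic and extracellular superoxide dismutases (Sod1 and Sod3), the quinone reductase Nqo1 and haem oxygenase 1 (Hmox1). The genes were chosen by symbol through the platform annotation, and 8 of the 10 have a probe set of their own there, out of 14754 genes with one. Gpx4 and Cat are not listed in that annotation and were not analysed here. All 8 genes passed the filter on dim probe sets, a log2 intensity above 4 on at least 6 of the 24 arrays, as did 5793 genes in all.

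The samples were quadriceps, a large thigh muscle, from male mice of the strain C57BL/6J, which the sample labels write as C56BL/6J. Mice aged 9 weeks went onto the low fat palm oil diet for a run-in of 3 weeks and were then assigned at random to a palm oil diet with 45% (high fat) or 10% (low fat) of its energy as fat. The 4 groups were high fat for 3 days, high fat for 28 days, low fat for 3 days and low fat for 28 days, with 6 mice and 6 arrays in each. Mice were 12 weeks old in the day 3 groups and 16 weeks old in the day 28 groups, so time on the diet and age cannot be told apart. Mouse numbers ran from 1751 to 1772 on high fat and from 2010 to 2025 on low fat, so the diet and the set of mice it was given to cannot be told apart either.

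Glutathione peroxidases reduce hydrogen peroxide or lipid peroxides at the expense of glutathione. Gpx1 and Gpx3 carry selenocysteine in the active site, and Gpx3 is secreted into plasma, while Gpx7 and Gpx8 reside in the endoplasmic reticulum and use cysteine. Superoxide dismutases make the hydrogen peroxide that peroxidases and catalase then remove. Nqo1 reduces quinones and Hmox1 opens the haem ring, and both are classical targets of the transcription factor NRF2, which binds the antioxidant response element.

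Because these enzymes are often described as one NRF2 programme, the sequences just upstream of the genes are shown for 4 of them: Gpx3, which was lower at both times, Gpx8, which had the largest change of the family, Nqo1, a classical target, and Sod1, the one with a match to the element. RefSeq windows (GRCm38.p6) were at hand for 6 of the 8 genes, Gpx1, Gpx3, Gpx7, Gpx8, Sod1 and Nqo1. The 250 bases before the start that this table gives for each gene were searched on both strands for 4 motifs, the antioxidant response element core TGACNNNGC, the AP-1 site TGANTCA, the GC box GGGCGG and the TATA box TATAAA. Capitals below mark matches, and positions count back from -1, the base before that start. For Gpx8 the RefSeq gene record reaches further upstream, so that 42 bases of its window lie inside the record, while the other 5 windows end at the edge of theirs.

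Gpx3, GRCm38.p6 chr11:54902604-54902853, plus strand: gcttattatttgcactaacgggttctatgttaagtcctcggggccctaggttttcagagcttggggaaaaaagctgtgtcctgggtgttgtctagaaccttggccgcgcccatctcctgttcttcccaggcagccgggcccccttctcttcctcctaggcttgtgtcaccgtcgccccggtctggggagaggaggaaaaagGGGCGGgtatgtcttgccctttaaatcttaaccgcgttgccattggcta
Gpx8, GRCm38.p6 chr13:113046389-113046638, minus strand: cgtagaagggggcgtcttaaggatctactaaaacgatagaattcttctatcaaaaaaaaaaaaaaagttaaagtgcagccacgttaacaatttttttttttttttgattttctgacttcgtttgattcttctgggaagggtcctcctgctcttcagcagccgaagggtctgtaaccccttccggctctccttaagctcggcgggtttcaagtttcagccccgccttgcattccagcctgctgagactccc
Nqo1, GRCm38.p6 chr8:107403206-107403455, minus strand: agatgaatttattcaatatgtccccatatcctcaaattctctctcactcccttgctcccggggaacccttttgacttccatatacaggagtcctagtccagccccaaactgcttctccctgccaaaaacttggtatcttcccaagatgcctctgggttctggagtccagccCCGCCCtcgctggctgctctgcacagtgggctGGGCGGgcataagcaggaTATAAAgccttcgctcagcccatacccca
Sod1, GRCm38.p6 chr16:90220512-90220761, plus strand: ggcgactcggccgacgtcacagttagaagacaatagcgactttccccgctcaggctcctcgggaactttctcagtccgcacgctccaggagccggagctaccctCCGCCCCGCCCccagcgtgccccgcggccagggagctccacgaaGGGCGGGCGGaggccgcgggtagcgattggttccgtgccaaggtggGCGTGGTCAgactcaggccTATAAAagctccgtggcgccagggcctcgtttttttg

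The response element core was found only in the Sod1 window among these 6, on the reverse strand from position -56, next to a TATA box at -37. Of all 32851 promoter windows, 10.2% held that core. The Nqo1 window held a TATA box at -29 and GC boxes at -47 and -79, the Gpx3 window a GC box at -49, and the Gpx8 window none of the 4 motifs. No window of the 6 held the AP-1 site, which 6.75% of all windows did. GC boxes occurred in 32.7% and TATA boxes in 12.4% of all windows. These are matches of letters in a short window. Bases farther upstream were not searched, so a gene without a match here, Nqo1 included, may carry the element elsewhere.

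After 3 days of high fat feeding Gpx3 was lower, at 52.4% of the low fat level, and none of the other 7 genes was called different. After 28 days 5 of the 7 genes other than Hmox1 were called lower on high fat, namely Gpx8 (31.7% of the low fat level), Sod3 (47.8%), Gpx1 (62.4%), Gpx3 (71.8%) and Gpx7 (80.3%), while Sod1 and Nqo1 were not called. Hmox1 passed the filter on dim probe sets through low fat arrays alone, so it is described apart and not counted. Sod3 is counted, but with 2 of 6 high fat arrays above the filter level at each day it passed only with low fat arrays. Its percent and call therefore rest on a dim high fat signal. Calls rest on limma with a Benjamini-Hochberg adjusted p under 0.05 over the 5793 genes, where 6.87% of all genes were called lower at day 3 and 7.18% at day 28, and 7.99% and 5.35% were called higher. The median log2 change of the 7 genes was -0.15 at day 3 and -0.48 at day 28, beside -0.0051 and 0.0097 for all genes tested. Of the genes called at day 28, 42.7% were higher, against 52.8% after quantile normalization.

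**Figure D1:**
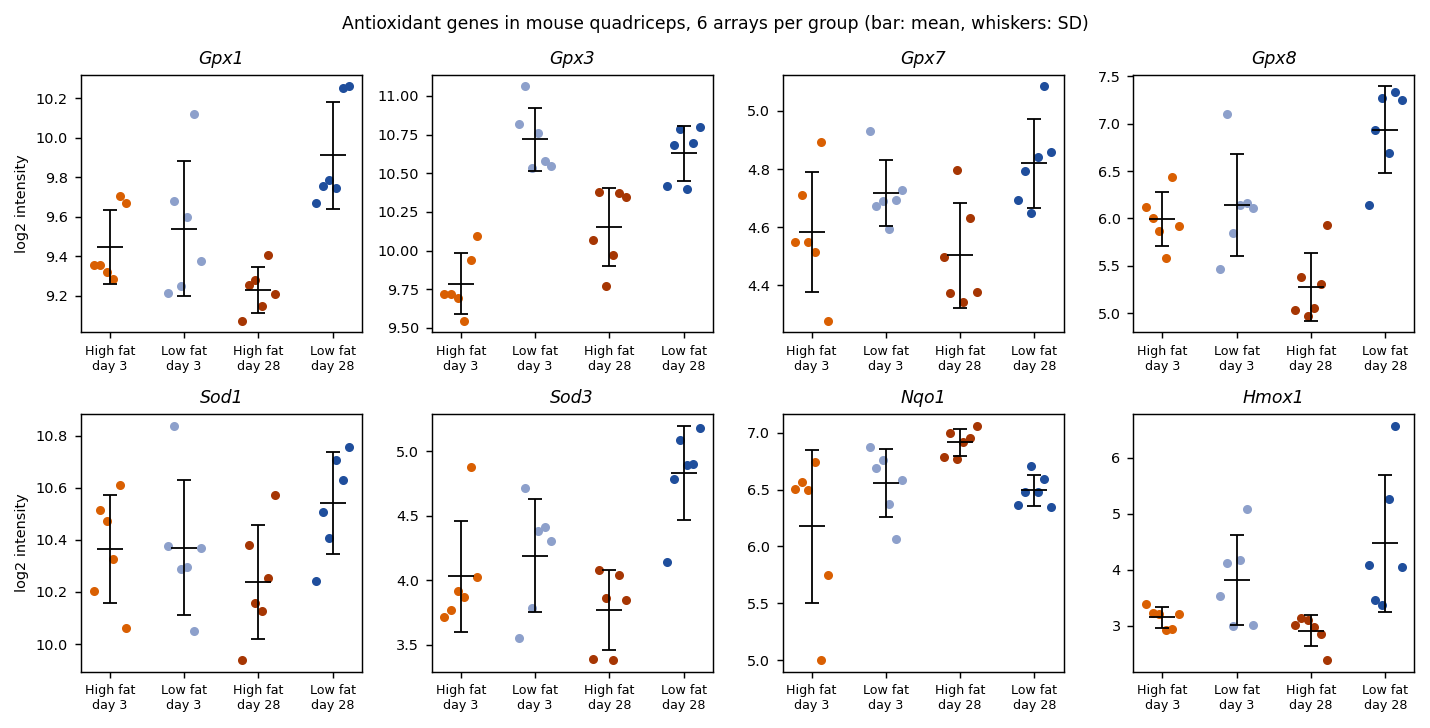
Log2 intensity of the 8 genes on each of the 24 arrays (points), by diet and day, with the group mean (bar) and SD (whiskers, 6 arrays per group). Gpx3 on high fat lies below every low fat array at both days, and Gpx1, Gpx8 and Sod3 do so at day 28. Hmox1 on high fat lies below the filter level of 4 throughout.

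Gpx3, the secreted peroxidase, was the one member called at both times. At day 3 its log2 intensity ran from 9.55 through a median of 9.72 to 10.09 on high fat, against 10.54, 10.67 and 11.06 (lowest, median, highest) on low fat. No high fat array reached the lowest low fat array, a separation that 2.59% of all genes tested showed downward and 3.5% upward. The log2 change was -0.93 ± 0.12 (SE, limma adjusted p = 1.71e-05), and Gpx3 ranked 21 by p among all genes. At day 28 the arrays ran from 9.77 through 10.21 to 10.38 on high fat and from 10.40 through 10.69 to 10.80 on low fat. The groups again did not overlap, as for 4.56% of all genes tested in this direction, though the gap between the nearest arrays was small, and the log2 change was -0.48 ± 0.12 (adjusted p = 0.00860).

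Gpx1, the main cytosolic peroxidase, gave no difference at day 3 beyond the spread between arrays. Its arrays ran from 9.28 through 9.36 to 9.71 on high fat and from 9.21 through 9.49 to 10.12 on low fat, a log2 change of -0.09 with a 95% interval of -0.37 to 0.19 (adjusted p = 0.695). By day 28 all high fat arrays, at 9.07 to 9.41 with a median of 9.23, lay below all low fat arrays, at 9.67 to 10.26 with a median of 9.77. The log2 change was then -0.68 ± 0.14 (adjusted p = 0.00154). Low fat replicates 5 and 6 at day 28 stood at the top of the range, at 10.25 and 10.26.

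Gpx8, which faces the lumen of the endoplasmic reticulum, had the largest change of the family at day 28. At day 3 its arrays overlapped, from 5.58 through 5.96 to 6.44 on high fat and from 5.47 through 6.13 to 7.10 on low fat, with a log2 change of -0.15 and a 95% interval of -0.63 to 0.33 (adjusted p = 0.705). At day 28 they ran from 4.97 through 5.18 to 5.93 on high fat, against 6.15, 7.09 and 7.33 on low fat. All 6 high fat arrays were below all 6 low fat arrays, and the log2 change was -1.66 ± 0.23 (adjusted p = 4.62e-05).

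Gpx7, its relative in the same compartment, moved least of the called genes. At day 28 it ran from 4.34 through 4.44 to 4.80 on high fat and from 4.65 through 4.82 to 5.08 on low fat. The groups overlapped, and the log2 change of -0.32 ± 0.10 was called narrowly (adjusted p = 0.0305, and 0.0115 to 0.0860 over 31 alternative settings, of which 22 kept the call). The call was lost without any one of replicates 1, 2, 4 or 6 of high fat day 28 or replicates 4, 5 or 6 of low fat day 28, with the highest adjusted p, 0.0860, without low fat replicate 5. It was also lost with quantile normalization (0.0576) and with no filter on dim probe sets (0.0538). The settings that left out a day 3 array could not move this log2 change. At day 3 Gpx7 ran from 4.28 through 4.55 to 4.89 on high fat and from 4.59 through 4.69 to 4.93 on low fat, overlapping, with a log2 change of -0.14 ± 0.10 (adjusted p = 0.366). Another probe set annotated to both Gpx6 and Gpx7 was assigned to neither.

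The superoxide dismutases differed from each other. Sod3, the extracellular enzyme of vessel walls and matrix, ran from 3.38 through 3.86 to 4.08 on high fat at day 28 and from 4.14 through 4.90 to 5.18 on low fat, with no overlap. The log2 change was -1.07 ± 0.21 (adjusted p = 0.00159). At day 3 the arrays overlapped, from 3.72 through 3.89 to 4.88 on high fat and from 3.55 through 4.34 to 4.72 on low fat, with a log2 change of -0.16 ± 0.21 (adjusted p = 0.653). Sod1, the abundant copper and zinc enzyme of the cytosol, ran at day 28 from 9.94 through 10.21 to 10.57 on high fat, against 10.24, 10.57 and 10.76 on low fat. These groups overlapped, and the log2 change of -0.30 had a 95% interval of -0.56 to -0.05 and missed the threshold after adjustment (adjusted p = 0.123, range 0.0378 to 0.257 over 32 alternative settings). At day 3 Sod1 had a log2 change of -0.0046 with a 95% interval of -0.26 to 0.25 (adjusted p = 0.986).

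Hmox1, which frees iron and biliverdin from haem and is made in quantity by macrophages, was dim in most arrays. At day 28 it ran from 2.39 through 3.00 to 3.14 on high fat and from 3.38 through 4.07 to 6.57 on low fat, a difference of fitted means of -1.55 ± 0.41 on the log2 scale. Low fat replicates 5 and 4, at 6.57 and 5.25, stood above the rest. At day 3 it ran from 2.92 through 3.21 to 3.40 on high fat and from 2.99 through 3.82 to 5.09 on low fat (a difference of -0.67 ± 0.41). No high fat array exceeded a log2 of 4, while 3 low fat arrays did at day 3 and 4 at day 28, so Hmox1 entered the test through the low fat arrays alone, and no call or fold is read from it. The high fat values lie close to the array medians of 2.71 to 2.79. Without low fat day 28 replicate 5 the difference at day 28 was -1.13. Sod3 was dim as well, with 2 of 6 high fat arrays above 4 at each day and 4 (day 3) and 6 (day 28) low fat arrays. It too passed the filter only with low fat arrays counted.

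Nqo1, the quinone reductase, was the exception in direction. At day 28 it ran from 6.77 through 6.94 to 7.06 on high fat, against 6.35, 6.48 and 6.71 on low fat, so that every high fat array was above every low fat array, as for 3.49% of all genes tested. The log2 change was 0.42 ± 0.21 and was not called (adjusted p = 0.209) in the fit that takes 1 spread from all 4 groups. With only the day 28 arrays fitted it was called (adjusted p = 0.00287), as it was without high fat day 3 replicate 5 (0.0472). The range over 32 alternative settings was 0.00287 to 0.306, and these 2 settings were the ones that gave a call. At day 3 Nqo1 ran from 5.0 through 6.50 to 6.74 on high fat and from 6.06 through 6.64 to 6.88 on low fat (log2 change -0.38 ± 0.21, adjusted p = 0.224). High fat replicate 5, at 5.0, was the lowest of the 24 arrays, and without it the log2 change was -0.15.

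**Figure D2:**
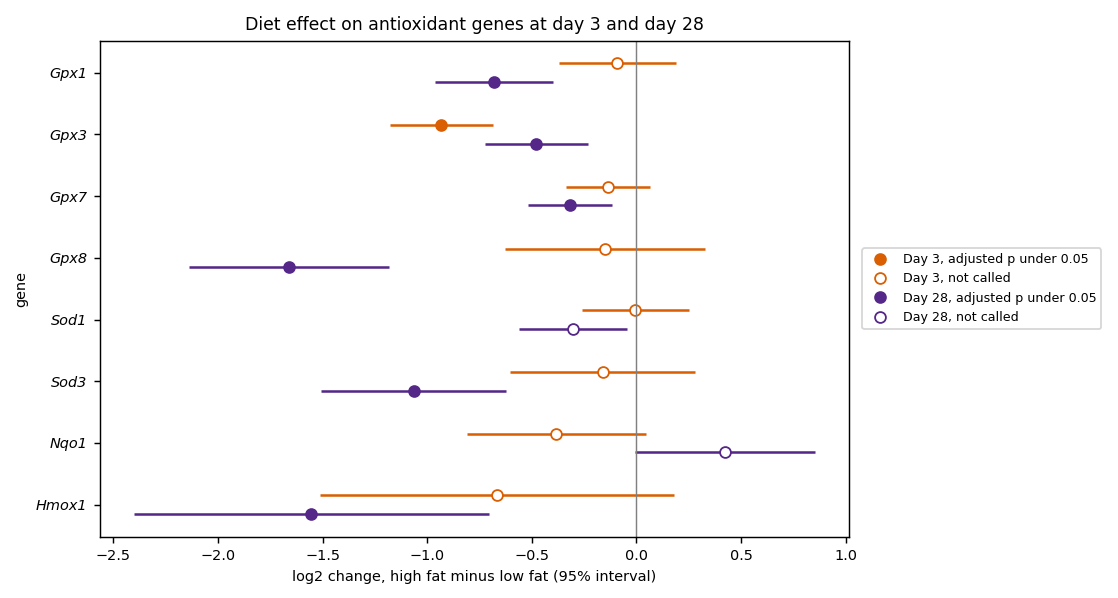
Log2 change of each gene on high fat relative to low fat (x axis) at day 3 and day 28, with its 95% interval from the limma fit. Filled points passed an adjusted p of 0.05. The intervals at the 2 days do not touch for Gpx1, Gpx8 and Sod3 and overlap for the other members. Hmox1 entered the test through low fat arrays alone.

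The difference between the diet effects at day 28 and day 3 was tested as an interaction, for which limma called 1.38% of all genes, 0.708% downward. Gpx8 was the one member called, with a difference of -1.51 ± 0.33 on the log2 scale (SE, adjusted p = 0.0286). Over 31 alternative settings its adjusted p ran from 0.00409 to 0.0567. The call was lost without high fat day 28 replicate 2 (0.0502), without low fat day 28 replicate 5 (0.0567) and with no filter on dim probe sets (0.0524). A further 4 members had an unadjusted p under 0.05, as did 18.8% of all genes, and none of them passed the adjustment. These were Gpx1 with -0.59 ± 0.19 (adjusted p = 0.105), Sod3 with -0.90 ± 0.30 (0.112), Nqo1 with 0.80 ± 0.29 (0.148) and Gpx3 with 0.45 ± 0.17 (0.152). The sign for Gpx3 is positive because its fall was the larger one at day 3. Although 5 of the 7 genes were called at day 28 and 1 at day 3, the difference between the days was called for Gpx8 alone in this fit. Gpx1 was also called with array weights (adjusted p = 0.0279, beside 4.8% of all genes) and without low fat day 3 replicate 5 (0.0340, 1.95%). Of all genes called for this difference 48.8% were positive, against 59.2% after quantile normalization.

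Day 28 against day 3 within a diet gave no called member by limma on either diet, against 0.552% of all genes on high fat (0.259% lower) and 0.345% on low fat. With array weights 1 member was called on high fat, beside 1.83% of all genes, and 3 on low fat, beside 2.28%. At an unadjusted p under 0.05 there were 3 members on each diet, beside 14.4% of all genes on high fat and 16.6% on low fat. On high fat these were Nqo1 (log2 change 0.74 ± 0.21, adjusted p = 0.104), Gpx3 (0.37 ± 0.12, 0.155) and Gpx8 (-0.71 ± 0.23, 0.155). Nqo1 was higher on every high fat array at day 28 than on any at day 3, a separation seen in 0.863% of all genes. On low fat they were Gpx8 (0.80 ± 0.23, 0.114), Sod3 (0.64 ± 0.21, 0.157) and Gpx1 (0.37 ± 0.14, 0.182). For Gpx8 the changes on the 2 diets had opposite signs, and neither passed the test on its own. On low fat no member separated the days completely, against 0.794% of all genes upward and 0.518% downward.

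Muscle markers were bright on every array. Ckm, the muscle creatine kinase, ran between 13.76 and 13.90, and Acta1, skeletal actin, between 14.20 and 14.32 over all 24 arrays. Acta1 holds the highest value of the data, so these probe sets show that muscle RNA is present and not that its amount was constant. Arrays correlated pairwise at 0.978 to 0.995 across probe sets, none identical, with medians of 6.56 to 6.90 in linear intensity. For low fat day 3 replicate 1 the labels do not name removal of genomic DNA, and leaving it out changed no member's call.

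Markers of several other cell types in the tissue moved with the diet beside these genes. Of all genes tested, 7.99% were called higher and 6.87% lower at day 3, and 5.35% and 7.18% at day 28. Of 13 adipocyte markers 10 were tested, and 9 fell on high fat at day 28, while at day 3, 3 fell, among them Pck1 and Cidec, and Car3 rose. Their mean log2 intensity per array ran from 4.52 to 5.58 on high fat and from 7.07 to 9.05 on low fat at day 28, without overlap, and from 4.77 to 8.13 on high fat and from 5.26 to 8.34 on low fat at day 3. Adipoq, adiponectin, was well measured on every array, at 7.19 to 9.32 on high fat and 10.19 to 11.71 on low fat at day 28. All 10 of 13 macrophage markers tested fell at day 28, and 1, Cd163, fell at day 3. Their mean ran from 5.64 to 6.41 on high fat and from 6.43 to 7.49 on low fat at day 28, and from 5.90 to 6.87 on high fat and from 6.13 to 7.45 on low fat at day 3. Slow fibre markers rose in 11 of 11 cases at day 3 and 9 of 11 at day 28. Their median log2 change was 4.01 at day 3 and 3.66 at day 28. On high fat their mean ran from 8.53 to 10.82 at day 3 and from 8.62 to 9.60 at day 28. On low fat it ran from 4.53 to 7.66 and from 5.05 to 7.86, without overlap between the diets at either day. Endothelial markers rose in 6 of 10 cases at day 3 and 1 at day 28, and smooth muscle markers in 4 of 6 and 1. The 1 called gene of each list at day 28 is too few to read as a shift from calls alone. The median log2 change of the endothelial list was 0.42 at day 3 and 0.33 at day 28. The endothelial mean was higher on every high fat array than on any low fat array at both days. For the smooth muscle list the medians were 0.44 and 0.22. Its mean separated the diets at day 3 and overlapped between them at day 28. Fibroblast and tendon markers rose in 5 of 11 cases at day 3, with 2 higher and 2 lower at day 28. In a whole muscle extract, fewer cells of a type and less RNA per cell cannot be told apart.

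Within groups, the adipocyte marker mean went with several members. After the group means were taken out, Sod3 correlated with it at Pearson's r = 0.85 and Spearman's rho = 0.78 over 24 arrays (permutation within groups, two-sided, adjusted p = 0.00048 and 0.00072 over 24 relations). Gpx8 gave r = 0.71 and rho = 0.71 (permutation adjusted p = 0.00096 and 0.00156), and Gpx1 r = 0.71 and rho = 0.70 (0.00416 and 0.0143). Without the 2 arrays farthest from the median of the marker mean, high fat day 3 replicate 5 and low fat day 3 replicate 1, r was 0.74 for Sod3, 0.67 for Gpx8 and 0.68 for Gpx1. Within the single groups r for Sod3 ran from 0.72 to 0.95, and for Gpx1 from 0.66 to 0.95. For Gpx8 it ran from 0.28 on high fat at day 28 to 0.97 on low fat at day 28. Nqo1 went the other way at r = -0.63 and rho = -0.40 (permutation adjusted p = 0.0648 and 0.214). Without those 2 arrays r was -0.33, so that relation rests on them. In the single groups r for Nqo1 was -0.94 on high fat and -0.55 on low fat at day 3. At day 28 it had the opposite sign, at 0.35 on high fat and 0.54 on low fat. For Gpx3, Gpx7, Sod1 and Hmox1 r ran from 0.14 to 0.38 and rho from 0.05 to 0.46, with permutation adjusted p of 0.212 to 0.659 for r and 0.0795 to 0.874 for rho.

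**Figure D3:**
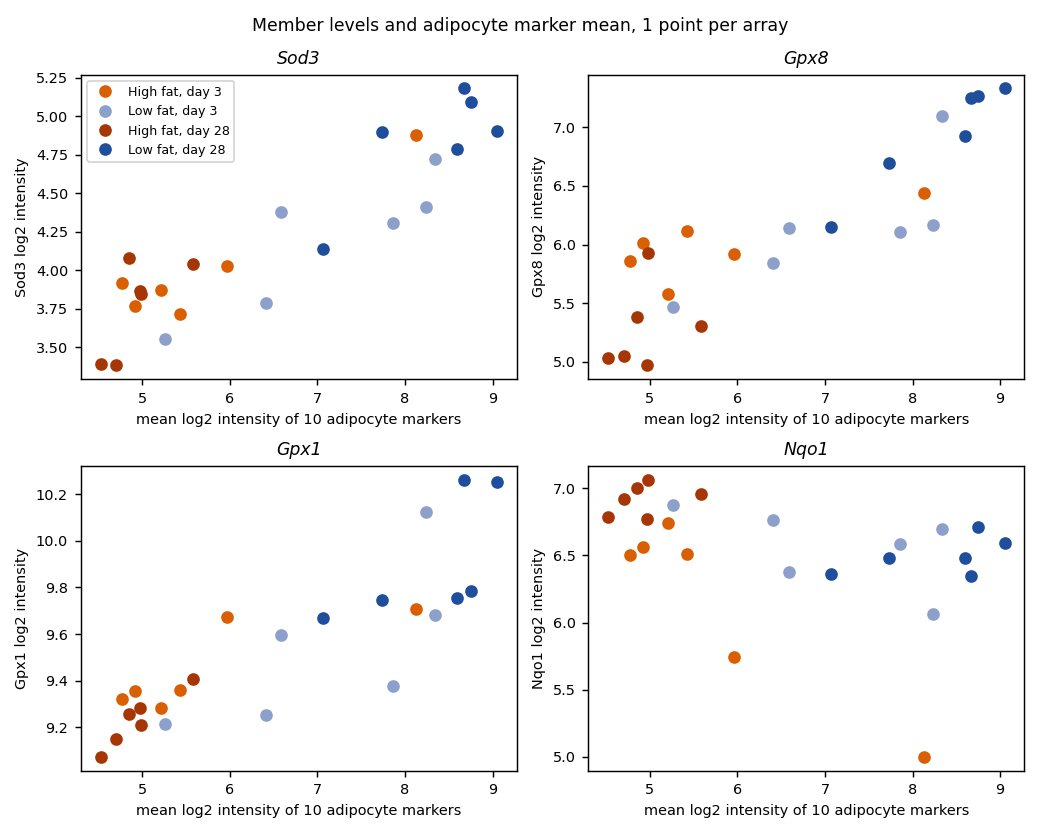
Log2 intensity of Sod3, Gpx8, Gpx1 and Nqo1 (y axes) against the mean log2 intensity of 10 adipocyte markers (x axis), 1 point per array, coloured by diet and day. Sod3, Gpx8 and Gpx1 are higher on arrays of higher marker mean within the groups too, but only weakly for Gpx8 on high fat at day 28 (r = 0.28). High fat day 3 replicate 5, at 8.13, is the high fat array with the highest marker mean.

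The macrophage marker mean gave another order. Gpx1 correlated with it within groups at r = 0.61 and rho = 0.68 (permutation adjusted p = 0.0399 and 0.0143), and Nqo1 at r = -0.52 and rho = -0.55 (0.0399 and 0.0454). Hmox1 had r = 0.54 and rho = 0.57 and missed the threshold (permutation adjusted p = 0.0721 and 0.0508). Without the 2 farthest arrays these were 0.68 for Gpx1, -0.58 for Nqo1 and 0.56 for Hmox1. In the single groups of 6 arrays r for Gpx1 ran from 0.22 (high fat day 28) to 0.71. For Nqo1 it was 0.37 on high fat at day 28, of opposite sign, and -0.76 to -0.50 in the other 3 groups. For Hmox1 it was -0.27 on high fat at day 3 and 0.45 to 0.79 in the other 3. With the slow fibre mean, r over the 8 members ran from -0.43 (Hmox1) to 0.29 (Nqo1), and rho from -0.44 to 0.33, the smallest permutation adjusted p being 0.260 for r and 0.198 for rho. What share adipocyte and macrophage RNA have in the diet differences of these genes was not tested.

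The genes most like each called member, by the same within-group correlation over 24 arrays and given as a description, were Dram1 (0.93), Acp5 (0.89) and Npc2 (0.88) for Sod3, and Aifm2 (0.89), Csad (0.88) and Mgll (0.84) for Gpx8. For Gpx1 they were Apoc1 (0.84), Ctsb (0.84) and Serpina3n (0.82), and for Gpx3 Zmat5 (0.80), Atox1 (0.72), a copper chaperone, and Lta4h (0.72). Gpx7 was nearest to Gemin6 (0.73), Tpst2 (0.71) and Dad1 (0.71). Hmox1, which is dim and not counted as called, was nearest to Ednrb (0.80), Ptpn1 (0.78) and Pf4 (0.77). No gene appeared for more than 1 member.

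Counts in the wider antioxidant network stand beside the 14.9% of all genes called at day 3 and 12.5% at day 28. NRF2 (Nfe2l2) itself had a log2 change of -0.22 at day 3 and -0.05 at day 28, neither called. Of 21 tested genes of the NRF2 list, 5 were lower and none higher at day 3, and 3 were lower and none higher at day 28, with medians of -0.14 and -0.15. At day 3 these included Keap1, the inhibitor of NRF2, at -0.52 ± 0.11 (SE, adjusted p = 0.00329), the autophagy adaptor Sqstm1 at -0.38 ± 0.09 and Gclm, a subunit of the enzyme that starts glutathione synthesis, at -1.07 ± 0.25. At day 28 they were Tkt (-2.91 ± 0.38) and Taldo1 (-0.55 ± 0.11) of the pentose phosphate pathway and the peroxiredoxin Prdx1 (-0.20 ± 0.06).

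Of 11 genes of glutathione synthesis and turnover, 2 were lower and 1 higher at day 3, and 1 was higher at day 28. Chac1, which degrades glutathione, was lower at day 3 (-1.61 ± 0.31), Glrx5, a mitochondrial glutaredoxin, higher (0.22 ± 0.06), and Oplah, which recycles glutathione breakdown products, higher at day 28 (0.28 ± 0.09). Glutathione reductase (Gsr), which regenerates the substrate of the peroxidases, was not called (-0.13 and 0.05). Of 11 glutathione transferases none was called at day 3, while Gstz1 (-1.01 ± 0.22) and Mgst1 (-0.64 ± 0.17) were lower at day 28. Of 12 thioredoxin and peroxiredoxin genes, Prdx2 was higher (0.29 ± 0.07) and Prdx1 lower (-0.19 ± 0.06) at day 3, and Prdx1 lower at day 28.

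Among the genes of haem and iron handling, both biliverdin reductases fell at day 28. Blvrb had -0.998 ± 0.19 and Blvra -0.33 ± 0.08, and Aco1, the cytosolic aconitase that also senses iron, -0.84 ± 0.14, 3 of 9 genes with none higher. At day 3 Blvrb was lower (-0.59 ± 0.19), and Hmox2, the constitutive haem oxygenase, higher (0.24 ± 0.06). Of 13 genes of selenoproteins and their synthesis, Selenop, the selenium carrier of plasma (-0.36 ± 0.09), and Msrb1, a methionine sulfoxide reductase (-0.45 ± 0.12), were lower at day 28, and Selenom was higher at day 3 (1.14 ± 0.19). The copper chaperone of Sod1, Ccs, was not called at either day (0.15 and 0.04), and of the 6 copper genes Mt1, a metallothionein, was lower at day 28 (-1.80 ± 0.54).

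The called mitochondrial antioxidants were higher on high fat. Of 7, Nnt (1.39 ± 0.16), Idh2 (1.13 ± 0.22) and Sod2, the mitochondrial superoxide dismutase (0.18 ± 0.05), were higher at day 3, and Nnt (1.45 ± 0.16) and Idh2 (1.57 ± 0.22) at day 28, with none lower. The Nnt difference was of similar size at both days. For it, too, the diet and the set of mice cannot be told apart. Of 15 peroxisomal genes 1 was higher and 1 lower at day 3, namely Ech1 (0.62 ± 0.07) and Pex5 (-0.35 ± 0.12). At day 28, 3 were higher and 2 lower, with Ech1 (0.57 ± 0.07), Pex16 (-0.85 ± 0.18) and Ehhadh (-1.36 ± 0.33) of smallest p. Of 5 oxidase genes 2 were lower at each day, Xdh (-0.87 ± 0.19) and Rac1 (-0.19 ± 0.05) at day 3, and Xdh (-0.90 ± 0.19) and Cyba (-0.73 ± 0.19) at day 28.

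**Figure D4:**
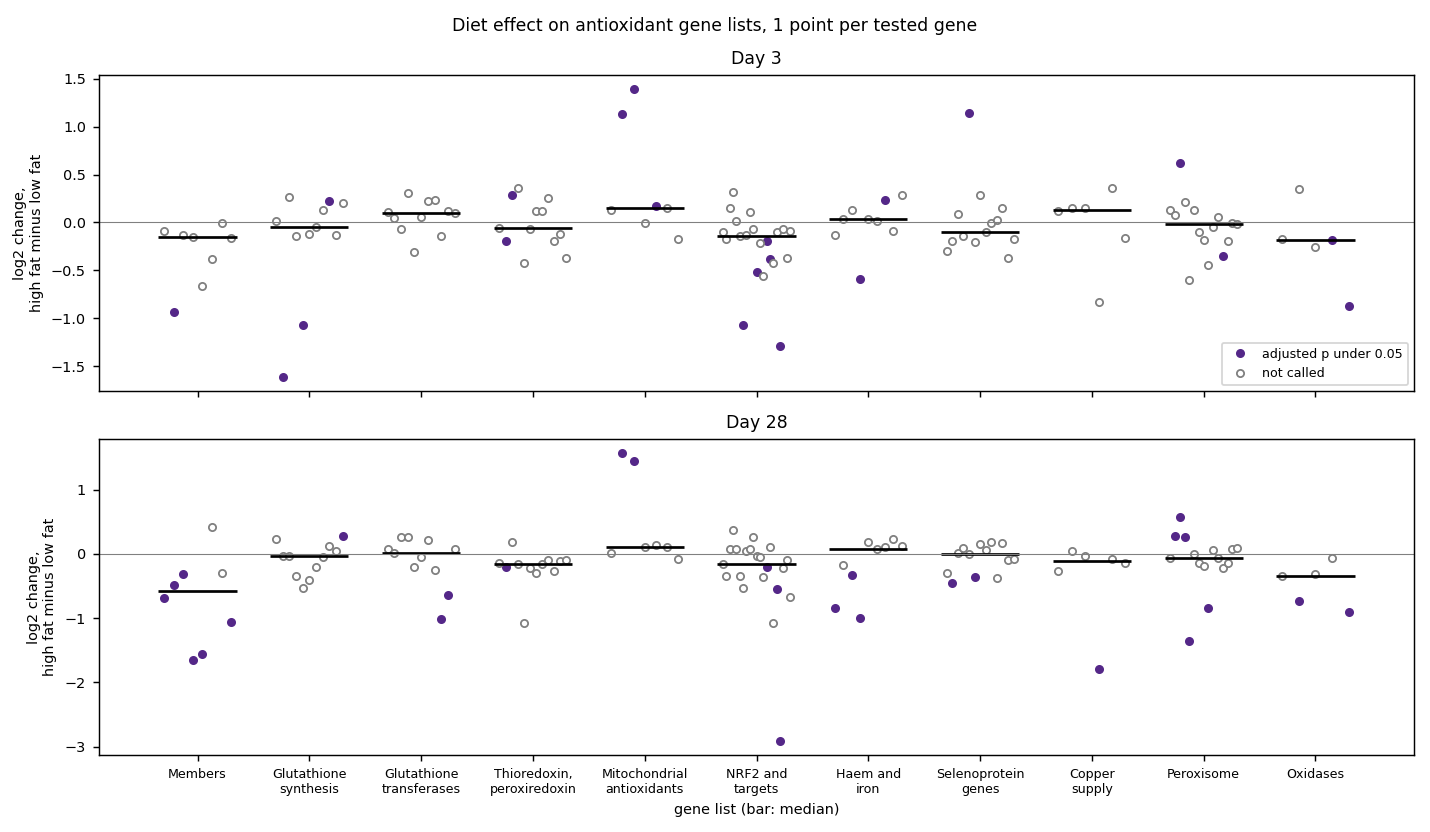
Log2 change on high fat relative to low fat (y axis) at day 3 and day 28 for every tested gene of the members and of 10 related lists (x axis), with list medians as bars and called genes filled. The bar of the members at day 28 is drawn with Hmox1, at -0.58. Without Hmox1, from which no fold is read, the median was -0.48. The bar of the mitochondrial antioxidants at day 28 lies at 0.11.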

How the data were processed

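Muscle RNA of 24 mice was hybridised to Affymetrix mouse arrays, 1 array per mouse. The deposited intensity per probe set was computed by the authors with GCRMA (background correction, normalization and summary of probes), per the submitters' processing notes; its version, the probe definition and the genome build are not given in the sources used here. Log2 was taken with no offset. Of 16361 probe sets 14771 had 1 symbol (symbols checked by Entrez number), and the brightest per gene was kept. Group means were fitted to all 24 arrays with limma 3.58.1 in R 4.3.3 (lmFit, eBayes, 20 residual degrees of freedom), two-sided. The fit was also run on simulated data with independent normal noise of the same spread in every group. That run cannot speak to dim signals or to groups of unequal spread. SE is that of the fit. The number of arrays limits the precision. Correlations used deviations from group means and 100000 permutations within groups. Same-numbered mice of different groups were not treated as pairs. The members and gene lists were chosen with earlier results of these data known. Genes named from the lists are the up to 3 called ones of smallest p per list and diet comparison, beside NRF2, Gsr and Ccs, chosen for their role. Filters, normalization, weights, priors, the replicate number and single arrays were varied.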

Additional observations from a re-analysis of the deposited data

Results flagged for a closer look

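Sod3 in high fat day 3 replicate 5 stood at a log2 intensity of 4.88, far above the next array of its group at 4.03. Of 32 groups of 6 arrays examined in this way, 1 stood out, and chance gives about 1 in 20. The same array had the lowest Nqo1 and the highest adipocyte marker mean of its group, and without it the Sod3 change at day 3 was -0.33, still not called. Gpx8 differed between the days in its diet effect by -1.51 on the log2 scale (limma interaction, adjusted p = 0.0286), with the 3 settings that end this call given above.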

How the results depend on the processing

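Of 1257 single-gene values under alternatives, 1225 kept their direction and side of the threshold, 13 gained a call, 12 lost one and 7 changed sign. Many of these values could not move. Each member has 1 probe set, so the mean of a gene's probe sets leaves it as it was. Leaving out an array outside a comparison keeps its log2 change and alters the spread alone. The count is therefore no measure of robustness. The calls of Gpx3 at day 3 and of Gpx1, Gpx3 and Gpx8 at day 28 held under every alternative. That of Sod3 at day 28 held in the 31 alternatives that tested it, but the filter at log2 above 6 left Sod3 out. Its call rests on a dim high fat signal, which these alternatives cannot mend. Each array was left out in turn, an alternative chosen after seeing the data except for low fat day 3 replicate 1. Signs changed only for uncalled day 3 values, Sod1 (0.00568 with quantile normalization, -0.0689 to 0.0893 leaving out arrays), Gpx8 (-0.283 to 0.0423) and Gpx1 (-0.156 to 0.0252). Leaving out arrays, members called ran from 0 to 2 for the interaction and 0 to 1 for the days on low fat (Gpx8, without low fat day 3 replicate 2 or day 28 replicate 1), and all genes called from 19 to 115 (80 with all arrays) for the interaction, 3 to 51 (32) for the days on high fat and 0 to 59 (20) on low fat. With no filter 0 members and 6 genes were called for the interaction, 9 genes for the days on high fat and 3 on low fat. The stricter filter (log2 above 6) left 5 members among 3707 genes tested, without Gpx7, Sod3 and Hmox1. The day 28 calls of Gpx1, Gpx3 and Gpx8 were kept there. Quantile normalization gave 40 genes for the days on low fat. With only the arrays compared, 507 genes were called at day 3 (861 in the fit of all arrays) and 0 for the days on low fat. Array weights gave 2 members (Gpx8 and Gpx1) and 278 genes for the interaction, 1 (Gpx8) and 106 for the days on high fat, and 3 (Gpx1, Gpx8, Sod3) and 132 on low fat. With the replicate block, 3 members (Gpx8, Gpx1 and Sod3, adjusted p = 0.0338 for Gpx1 and 0.0430 for Sod3) and 176 genes were called for the interaction (3.04% of all genes) and 32 genes for the days on low fat. Same-numbered arrays correlated at -0.38 to 0.54 after removing group means, 11 of 24 pairs over 0.1 and 4 of 24 best with their own number. The numbers thus show no steady pairing of the mice. This check cannot tell whether some same-numbered arrays share an order of processing. Why the counts moved was not tested. Dim signals limit Hmox1 and Sod3.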
